A study of Mus musculus with 14 samples.

Results

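The genes described here are 35 mouse genes of T cell receptor signalling. Among them are kinases that act beside the receptor, and phosphatases and surface molecules, several of which restrain it. The 35 genes were chosen by name: a region of open chromatin belonged to the set when the deposited list gave one of them as its nearest gene. This rule took in 436 of the 92842 peaks in the list, and 35 of the 19105 genes named there. The assay was ATAC-seq. Its enzyme, the Tn5 transposase, inserts sequencing adapters where DNA is not covered by nucleosomes. The study covered 7 blood-forming cell types of untreated wild-type C57BL/6 mice aged 8 to 12 weeks, each sorted by antibody staining and sequenced in 2 libraries, 14 in all. Multipotent progenitors (MPP), common myeloid progenitors (CMP), common lymphoid progenitors (CLP), granulocyte and macrophage progenitors (GMP), megakaryocyte and erythroid progenitors (MEP) and ProB cells were bone marrow cells, whereas the ProT cells were thymic. The labels name neither the sort markers nor the animals behind each library, so the libraries of a pair may share animals.

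The values are those of 1 list merged over all the cell types. It gives the place of each peak, the transcript or repeat it lies in, and its distance to the nearest transcription start. It does not say in which cell type a peak was open, so a peak below may have been open in ProT cells alone, in every cell type, or in cells of another lineage. No value per library or per cell type was analysed here, no comparison between cell types was made, and the sorted cell types could not be checked against their markers. Every peak is 499 bp wide, and a peak goes to the gene with the nearest start, which need not be a gene it acts on.

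When a T cell receptor binds its ligand, the kinase Lck phosphorylates the CD3 and zeta chains, the kinase Zap70 docks on them, and Zap70 in turn phosphorylates the adaptors Lat and Lcp2 (SLP-76). On that scaffold phospholipase C gamma 1 makes the second messengers inositol trisphosphate and diacylglycerol, which open the calcium path to the NFAT factors and the path through Rasgrp1 to Ras. Phosphatases, ubiquitin ligases and inhibitory receptors such as Ctla4 hold the signal in check. In thymus this signalling decides which immature T cells survive. Several of its kinases and phosphatases also act in B cells, myeloid cells or earlier progenitors.

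The promoters of the proximal chain are shown first, with Itpkb beside them as a gene without a peak of its own near the start. The sequences are RefSeq promoter windows of build GRCm38.p6 (mm10 shares its primary assembly), read 5′ to 3′ on the strand of the gene, from 250 bases before the start to 50 after it. Capitals mark every match to 8 short motifs searched on both strands. The motif for RUNX factors was TGTGGT, and that for ETS factors was GGAAGT. The E-box was searched as CAGCTG and the GATA motif as AGATAA. The TCF motif was TCAAAG, and Sp and KLF factors were given GGGCGG. The NF-Y motif was CCAAT and the TATA box was TATAAA. The Lck windows are chr4:129573592-129573891 and chr4:129558323-129558622 on the minus strand. The others are chr1:36761548-36761847 (Zap70, plus), chr7:126369519-126369818 (Lat, minus), chr11:34046678-34046977 (Lcp2, plus) and chr1:180330226-180330525 (Itpkb, plus).
Lck distal promoter: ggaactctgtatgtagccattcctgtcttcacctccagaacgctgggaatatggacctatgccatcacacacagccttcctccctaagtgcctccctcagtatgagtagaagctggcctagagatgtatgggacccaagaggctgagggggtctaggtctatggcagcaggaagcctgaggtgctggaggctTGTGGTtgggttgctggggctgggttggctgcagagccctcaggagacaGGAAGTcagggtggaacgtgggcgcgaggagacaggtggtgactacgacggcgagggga
Lck proximal promoter: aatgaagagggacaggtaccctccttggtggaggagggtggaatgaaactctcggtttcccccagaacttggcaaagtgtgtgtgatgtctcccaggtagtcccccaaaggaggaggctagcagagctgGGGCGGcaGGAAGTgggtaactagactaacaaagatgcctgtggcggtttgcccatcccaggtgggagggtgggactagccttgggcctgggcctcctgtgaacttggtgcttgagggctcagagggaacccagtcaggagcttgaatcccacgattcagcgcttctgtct
Zap70 promoter: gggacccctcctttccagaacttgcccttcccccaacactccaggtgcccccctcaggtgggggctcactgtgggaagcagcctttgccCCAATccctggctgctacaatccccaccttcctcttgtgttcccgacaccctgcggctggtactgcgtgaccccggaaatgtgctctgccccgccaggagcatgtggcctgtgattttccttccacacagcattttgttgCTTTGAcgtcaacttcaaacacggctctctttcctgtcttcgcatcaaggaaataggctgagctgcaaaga
Lat promoter: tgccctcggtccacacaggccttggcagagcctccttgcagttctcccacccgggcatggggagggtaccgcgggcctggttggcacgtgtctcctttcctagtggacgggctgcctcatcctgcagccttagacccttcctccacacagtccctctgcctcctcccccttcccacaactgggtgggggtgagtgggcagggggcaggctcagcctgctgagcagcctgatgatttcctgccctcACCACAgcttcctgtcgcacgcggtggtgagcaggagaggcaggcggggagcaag
Lcp2 promoter: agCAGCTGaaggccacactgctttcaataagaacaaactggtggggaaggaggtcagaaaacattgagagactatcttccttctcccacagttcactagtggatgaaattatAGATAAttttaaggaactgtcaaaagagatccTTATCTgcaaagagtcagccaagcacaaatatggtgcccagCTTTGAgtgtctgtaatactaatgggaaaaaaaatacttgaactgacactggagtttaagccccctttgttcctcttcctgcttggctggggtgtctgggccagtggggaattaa
Itpkb promoter: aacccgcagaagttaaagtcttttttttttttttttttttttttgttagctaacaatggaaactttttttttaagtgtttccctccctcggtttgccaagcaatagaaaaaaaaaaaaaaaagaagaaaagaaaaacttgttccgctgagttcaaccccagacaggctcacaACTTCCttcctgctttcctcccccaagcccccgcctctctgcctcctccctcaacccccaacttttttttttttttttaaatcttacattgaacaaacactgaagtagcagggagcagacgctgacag

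In the distal Lck window the RUNX letters began 58 bases and the ETS letters 9 bases upstream of the start, and a peak covered the whole window of 300 bases. The proximal Lck window held the ETS letters 113 bases and the Sp and KLF letters 121 bases upstream, and a peak covered 298 of its bases. In the Zap70 window the TCF letters lay on the opposite strand 21 bases upstream and the CCAAT letters 161 bases upstream, with 264 bases inside a peak. In the Lat window the only match was that of RUNX, on the opposite strand 5 bases before the start, with 247 bases inside a peak. The Itpkb window held only the ETS letters, 78 bases upstream on the opposite strand, and 172 of its bases lay in a peak that the list gives to the neighbouring gene Gm5069. The Lcp2 window had an E-box, GATA letters at 138 and 106 bases upstream and TCF letters at 65 bases, but no CpG at all, and no peak overlapped it. The list places the start of Lcp2 at position 34047201, downstream of the RefSeq window, and the peak nearest to it, chr11:34047095-34047593, lies 143 bp further on in the 5′ UTR of exon 1. A match is a run of letters and not a bound site.

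Over the 35 genes the number of peaks per gene ran from 1 for Lat to 38 for Cblb. The median was 11, against 3 over all genes in the list, and the mean was 12.5 ± 9.09 (SD over 35 genes) against 4.86 ± 5.33 over 19105 genes. At least 10 peaks were found for 20 of the 35 genes (57.1%), where 12.6% of all genes in the list had as many. More peaks than the median of all genes were found for 29 of the 35, where 55.5% of all genes in the list had 3 peaks or fewer. All 35 were named as nearest gene, which the choice of members may fix, and 75.2% of the protein-coding genes in RefSeq were. The distributions overlapped widely, and 6 of the 35 genes (Lck, Sh2d2a, Dgka, Ptpn2, Lag3 and Lat) had 3 peaks or fewer. Counting only peaks within 10 kb of a start, the medians were 3 and 1. No test was made of the difference.

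**Figure D1:**
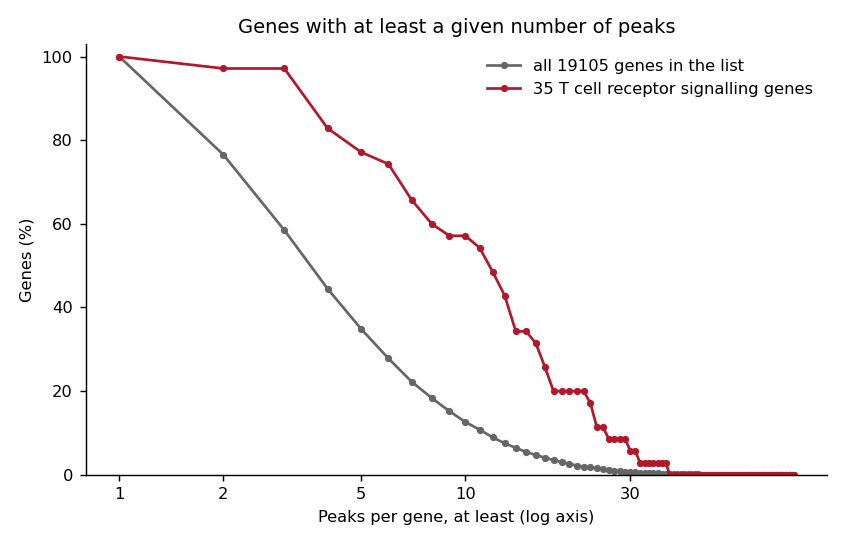
Share of genes (vertical axis, percent) that have at least the number of peaks given on the horizontal, log axis, for the 35 T cell receptor signalling genes (red) and all 19105 genes in the list (grey). At 10 peaks the red line stands at 57.1% and the grey line at 12.6%.

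The genes are also longer than most. Their median length was 55.7 kb, from 1.63 kb for Sit1 to 295 kb for Skap1, against 22.8 kb for all protein-coding genes in the list. Counted by place instead of by nearest start, they held a median of 8 peaks inside the gene body against 2. Per 10 kb of gene body this was 1.20 peaks against 0.701. The part of gene length in the number of peaks was not tested beyond this density.

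A peak within 1 kb of a transcription start, where the core promoter lies, was found for 32 of the 35 genes (91.4%), against 68.0% of all genes in the list. All 35 are protein-coding, and no such share was computed over the 16500 protein-coding genes of the list alone. Of the 32 genes with a near peak, 24 had 1 and 8 had at least 2. The same split was not computed over all genes. Lck, Zap70, Grap2 and Dgkz had peaks at 2 separate starts. The exceptions were Itpkb, Lag3 and Skap1, described with their groups. Peaks near a start made up 9.40% of the peaks of these genes (95% interval 6.83 to 12.5) against 16.2% of all peaks. This share also depends on the number of peaks farther out, and the genes had a mean of 12.5 peaks against 4.86. The part of peak number in this share and in the 91.4% was not tested.

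**Figure D2:**
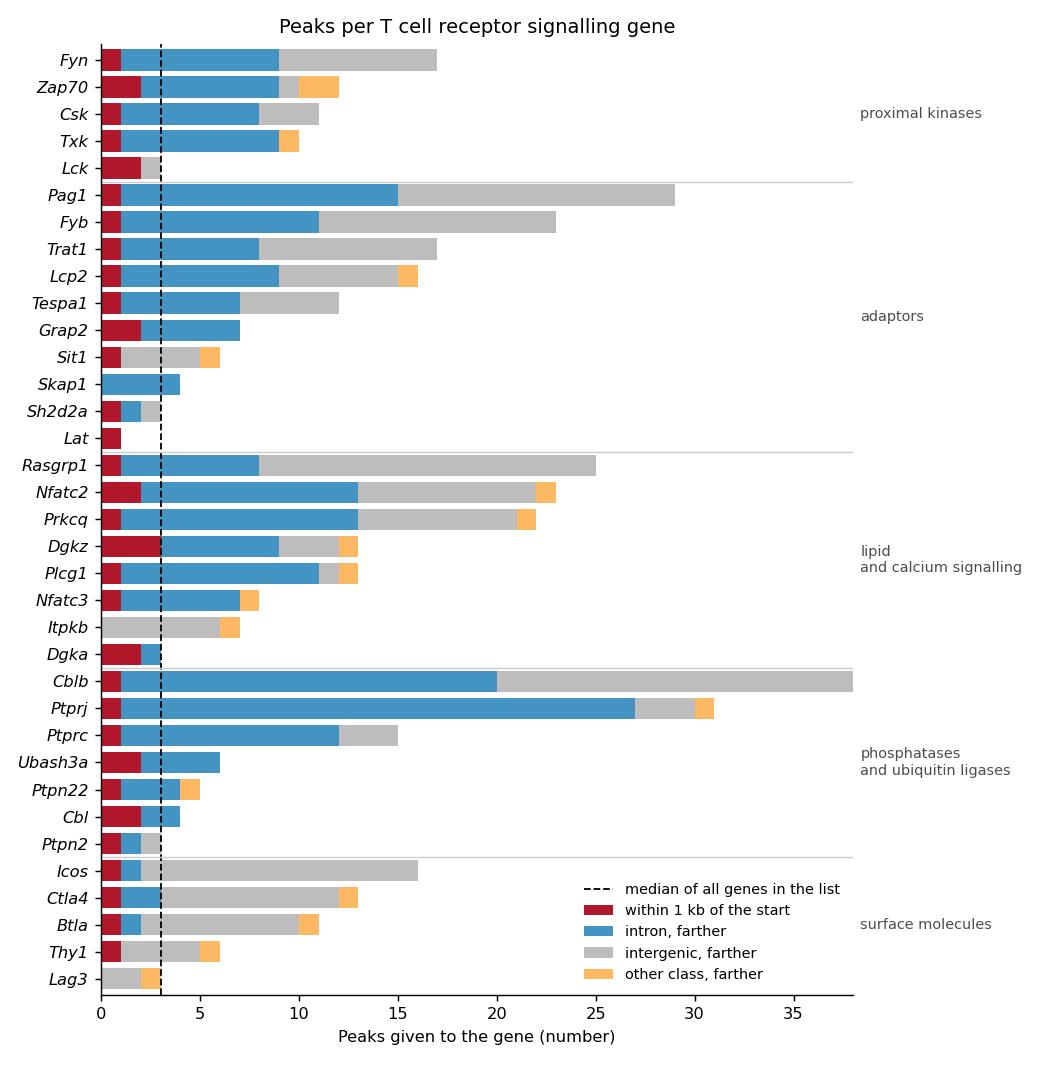
Number of peaks of each of the 35 genes (horizontal bars from 0), grouped by role, split by colour into peaks within 1 kb of a start and, farther out, peaks in introns, between genes and of other classes, with the median of all genes, 3, as a dashed line. Cblb is the longest bar at 38 and Lat the shortest at 1, and Itpkb, Lag3 and Skap1 have no peak within 1 kb.

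The 5 proximal kinases had 53 peaks, with a median of 11 and a range from 3 to 17, and all 5 had a peak within 1 kb of a start. Lck, the kinase that starts the signal, had the fewest in its group, 3, and had a peak at both of its starts. The peak chr4:129573416-129573914 lay with its centre 24 bp from the distal start, annotated as promoter. The peak chr4:129558325-129558823 lay 202 bp from the proximal start, and the remaining peak lay 1.69 kb upstream, outside any gene. Lck transcription from the proximal start is known from thymocytes and from the distal start in thymocytes and mature T cells, but the merged list does not tell which cells gave either peak.

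Fyn, the other Src kinase of the receptor, had the most peaks of the kinases, 17, and its nearest was chr10:39369489-39369987, 61 bp from the start. Of the rest, 8 lay upstream between 11.1 and 89.2 kb and 8 lay in introns 2 and 3, between 32.9 and 121 kb downstream. Inside the Fyn gene body there were 15 peaks, but 7 of them were given to Traf3ip2, whose start lies nearer to them. Zap70 had 12 peaks. Its peaks at 2 starts lay 35 bp (chr1:36761584-36762082) and 117 bp away, and these were the only ones inside the gene. Of its others, 6 lay in the transcript of Tmem131, 3 in a transcript that could not be matched to a gene and 1 between genes.

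Txk, a Tec-family kinase, had 10 peaks, of which 7 lay inside its neighbour Tec, a kinase of the same family. Tec itself had 16 peaks. Csk, which keeps Lck and Fyn inactive, had 11 peaks within 11.9 kb of its starts, 6 of them in intron 2. Counting every peak inside the gene body, Csk had the most per 10 kb of the 5 kinases, 3.34, where Zap70 had 0.951, Lck 0.791, Fyn 0.767 and Txk 0.526.

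The 10 adaptors had 118 peaks, with a median of 9.5, and included the gene with the fewest peaks of all. Lat, the membrane scaffold that Zap70 phosphorylates, had 1 peak, chr7:126369267-126369765, 18 bp from its start. The gene spans 5.88 kb. Lcp2, its cytosolic partner, had 16 peaks, 8 in introns and 6 outside any gene, reaching from 15.7 kb upstream to 76.1 kb downstream. Per 10 kb of gene body the pair stood closer, with 1.70 peaks for Lat and 2.20 for Lcp2. Grap2 (Gads), which links Lcp2 to Lat, had 7 peaks, 5 of them in intron 1 and 1 at each of its 2 starts.

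Pag1, the membrane adaptor that recruits Csk, led the adaptors with 29 peaks. Its nearest was chr3:9833321-9833819, 109 bp from the start in the 5′ UTR of exon 1, 13 lay in intron 1, and 14 lay upstream between genes, 10.8 to 88.1 kb away. Fyb (ADAP), an adaptor that couples the receptor to integrins, followed with 23. Its nearest was chr15:6579699-6580197, 101 bp from the start in exon 1, and 12 lay upstream, as far as 60.0 kb. Trat1, a receptor-associated transmembrane adaptor, had 17, of which 12 lay downstream and 4 of those within Morc1, more than 144 kb away. Tespa1, needed for thymocyte selection, had 12, including 5 in intron 1.

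Skap1, the partner of Fyb, had no peak near its start. Its 4 peaks all lay in introns 3 and 4, the nearest, chr11:96536105-96536603, 71.8 kb downstream. The gene body of 295 kb held 13 peaks, but 9 were given to Snx11, whose start lies beyond the Skap1 end. The closest peak of any gene to its start lay 7.61 kb upstream. The small genes Sit1 and Sh2d2a had 6 and 3 peaks. Sit1, an inhibitory transmembrane adaptor of 1.63 kb, had 1 at its start and 5 within 9.77 kb downstream, 4 of them between genes. Sh2d2a, an SH2 adaptor that binds Lck, had 1 at its start, 1 at 7.82 kb upstream and 1 inside Prcc.

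The 8 genes of lipid and calcium signalling had 114 peaks and the highest median of the groups, 13. Rasgrp1, the diacylglycerol-activated exchange factor for Ras, had 25. Its nearest, chr2:117342175-117342673, lay 453 bp downstream in intron 1, and 17 of the 25 lay upstream between genes, as far as 199 kb. Nfatc2, a transcription factor that calcineurin releases into the nucleus, had 23, of which 20 lay downstream and 8 of those 112 to 161 kb from the start. Its nearest was chr2:168589980-168590478, at 136 bp. Nfatc3, its relative, had 8, and 5 of them lay in Dus2.

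Prkcq, the diacylglycerol-activated kinase of the T cell synapse, had 22 peaks, 11 of them in intron 1 and 3 of them 112 to 156 kb upstream. Plcg1, the phospholipase, had 13, including 6 in intron 2 and 4 in the neighbouring Top1 and Zhx3. The diacylglycerol kinases, which remove that messenger, differed from each other. Dgkz had 13, with peaks at 2 starts (38 and 110 bp), and Dgka had 3, the nearest being chr10:128743217-128743715, 590 bp from the start in intron 1.

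Itpkb, a kinase that converts inositol trisphosphate, had no peak within 1 kb under its own name. All of its 7 peaks lay upstream, the nearest, chr1:180328881-180329379, at 1.35 kb inside Gm5069. Its gene body of 94.4 kb held 17 peaks and none was given to it, as 13 went to Gm5069, whose start lies head to head with that of Itpkb, and 4 to 6330403A02Rik. The peak chr1:180330354-180330852 lay 127 bp downstream of the Itpkb start and is named for Gm5069.

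The 7 phosphatases and ubiquitin ligases had 102 peaks and the widest range, 3 to 38, and all 7 had a peak within 1 kb of a start. Cblb, a ubiquitin ligase that raises the threshold of T cell activation, had the most peaks of the 35 genes, and 99.8% of all genes in the list had fewer. Its nearest was chr16:52031142-52031640, 158 bp from the start. The others fell in separate stretches, with 2 between 24.4 and 42.1 kb upstream, 15 between 217 and 594 kb upstream and 20 within 188 kb downstream. The 15 distant peaks all lay between genes. Introns of Cblb held 19 peaks, 7 of them in intron 3. Its relative Cbl had 4, of which 2 lay within 1 kb of the start.

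Ptprj, a receptor phosphatase of the Src kinases, had 31 peaks, 25 of them in intron 1 and all within 49.1 kb of a start. Its nearest was chr2:90580172-90580670, 226 bp from the start in exon 1. Ptprc (CD45), the phosphatase that keeps Lck activatable and is carried by all white blood cells, had 15, and 10 of these lay in intron 2. Ptpn22, which dephosphorylates Lck and Zap70, had 5. Ubash3a, which dampens signalling through Zap70, had 6, of which 2 lay within 1 kb of the start. Ptpn2, a phosphatase of Lck and of cytokine receptors, had 3, and its nearest was 123 bp from the start in exon 1.

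The 5 surface molecules had 49 peaks and a median of 11. Icos, a costimulatory receptor, had 16, and Ctla4, the inhibitory receptor beside it, had 13. The nearest peak of Icos was chr1:60977543-60978041, 122 bp from the start, and 13 of its 16 lay downstream, 11 of those more than 61 kb away. The nearest of Ctla4 was chr1:60908767-60909265, 9 bp from the start, and 8 others lay upstream, toward Cd28. With Cd28, which had 14, the genes of this cluster were given 43 peaks. They span 254 kb from the start of Cd28 to the end of Icos, and some of the peaks lie beyond that span. Each of the 3 had exactly 1 peak within 1 kb of its start.

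Btla, an inhibitory receptor of B and T cells, had 11 peaks, 8 of them between genes. Thy1, a surface protein of mouse T cells, had 6, including 1 at 511 bp in intron 1 and 3 between 58.5 and 70.9 kb upstream. Lag3, an inhibitory receptor, had 3, none near its start and none inside its 8.08 kb gene body. The nearest, chr6:124903632-124904130, lay 7.82 kb downstream at the end of the transcript. The closest peak of any gene to the Lag3 start lay 5.73 kb upstream in Ptms. Cd4, its neighbour, had 2 peaks and none within 1 kb of its start.

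**Figure D3:**
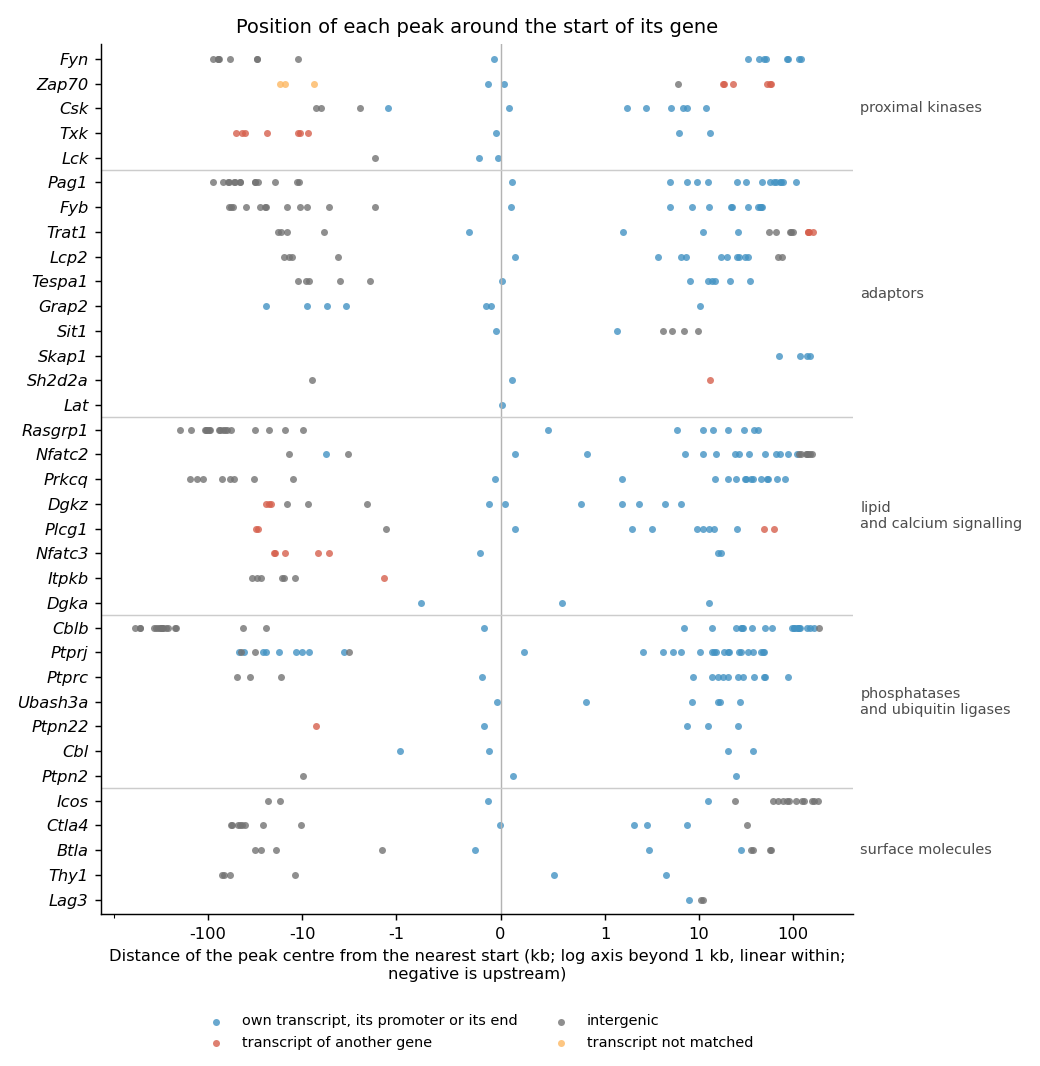
Distance of the centre of each of the 436 peaks from the nearest start of its gene (horizontal axis in kb, linear within 1 kb and logarithmic beyond, upstream to the left), 1 row per gene, coloured by the transcript the peak lies in. Cblb reaches 594 kb upstream, the upstream peaks of Txk beyond 1 kb lie in another gene, and Skap1 and Lag3 have only downstream peaks beyond 1 kb.

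Taken over all 436 peaks, 49.3% lay in introns (44.5 to 54.1) against 42.0% of all peaks, and 20.9% lay in intron 1 (17.2 to 25.0) against 14.8%. Of the 91 peaks in intron 1, 25 were those of Ptprj, 13 of Pag1 and 11 of Prkcq. Ptprj had 26 of its 31 peaks in introns. Neither share was computed without it, so both differences may rest on few genes. Intergenic peaks made up 39.0% against 39.3%. The median distance to the start was 24.4 kb against 18.2 kb, and 42.2% lay between 10 and 50 kb against 37.1%. Beyond 100 kb lay 58 peaks, 13.3% against 12.4%, in 9 of the 35 genes. The number of genes with such a peak has no reference here. The intervals are exact binomial ones and cover counting error only, and peaks of 1 gene are not independent of each other.

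Of the 436 peaks, 231 lay in transcripts of their own gene, its promoter or its end, 170 between genes and 32 in a transcript of another gene, and these 32 belonged to 9 genes. The assignment also worked the other way. Inside the gene bodies of the 35 genes lay 296 peaks, and 56 of them (18.9%) in 15 genes were given to another gene, against 26.4% over protein-coding genes. Itpkb with 17, Skap1 with 9 and Fyn with 7 accounted for most of the 56. All 35 genes are named in the list, and a gene not named there has every peak in its body given to another gene. As far as the 26.4% includes such genes, a lower share for the 35 is built into the comparison. The size of this part was not tested.

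**Figure D4:**
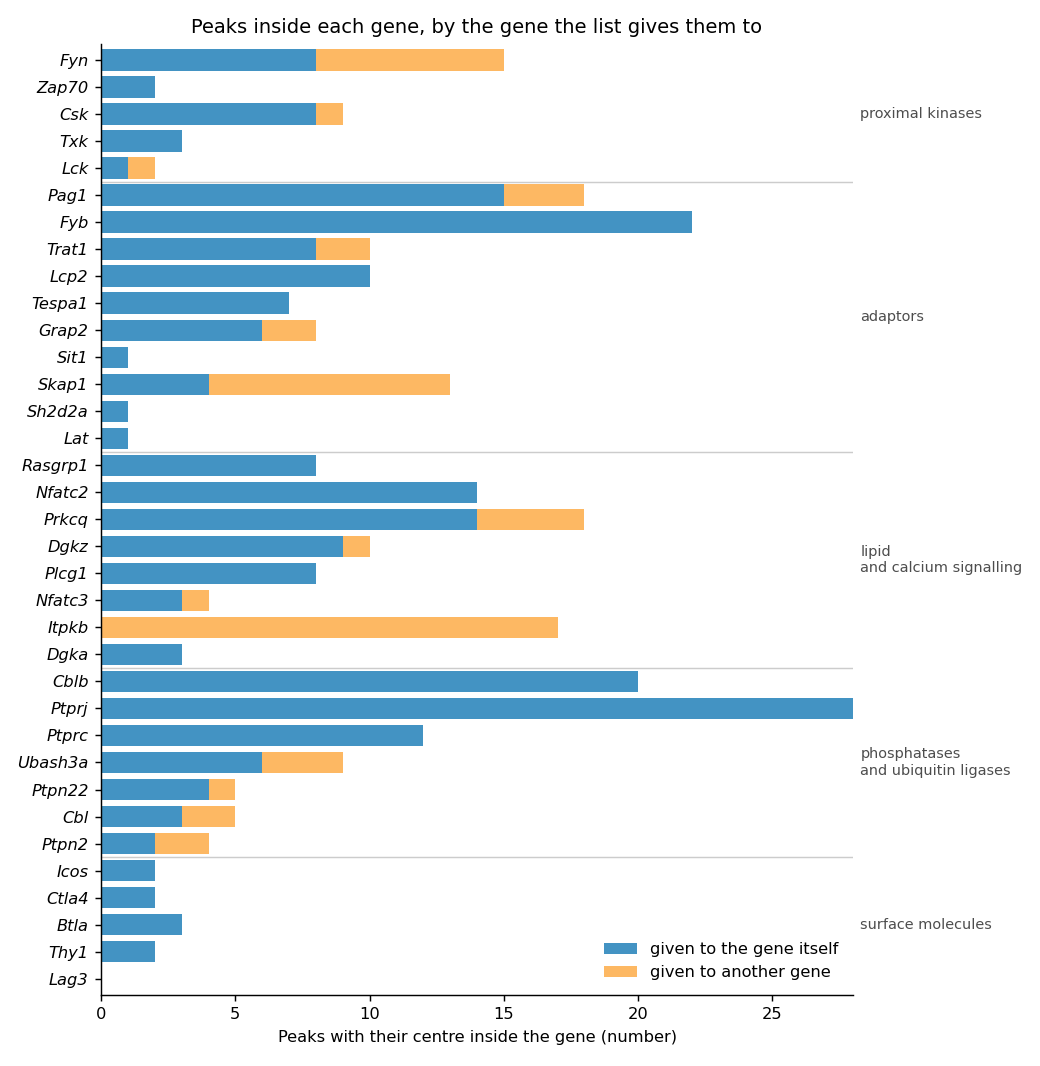
Peaks inside the body of each of the 35 genes, split into those given to the gene itself and those given to another gene with a nearer start (bars from 0, number of peaks). Itpkb has 17 in its body and none of them as its own, and Ptprj has 28, all its own.

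Neighbouring peaks of 1 gene were a median of 5009 bp apart at their edges, against 6422 bp over all genes. Of 401 such pairs, 62 were within 1 kb, and the closest, 9 bp apart, lay 29.9 kb upstream of Fyn. Pairs within 1 kb were not counted over all genes. Repeats held 15.6% of the peaks (12.3 to 19.3) against 16.0% of all peaks. LTR elements held 7.80% (5.46 to 10.7) against 6.59%, and the ERVL-MaLR family among them 5.05% (3.19 to 7.54) against 3.94%. ORR1E, an element of that family, held 1 peak each of Cblb, Fyb, Icos, Lcp2 and Prkcq, or 1.15% (0.373 to 2.66) against 0.574%. All these intervals held the share of all peaks.

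The RefSeq promoter table held 27 of the 35 genes, with 41 windows of 300 bases. A peak overlapped 28 of the 41 (68.3%), against 41.7% of all windows in the table and 53.7% of those of protein-coding genes, and 25 of the 27 genes had such a window. The 2 without were Lcp2, shown above, and Rasgrp1, whose nearest peak lay further into the gene. Counts of genes with such a window have no reference over all genes. The windows had a median of 57.3% G and C, against 52.7% for all windows and 56.3% for those of protein-coding genes. Their median ratio of observed to expected CpG was 0.395, close to the 0.384 of all windows and under the 0.567 of protein-coding genes, which all 35 are. Promoters rich in CpG are open in most cell types, and those poor in it are more often open in few. With a ratio of at most 0.6 counted as poor, 27 of the 41 windows were poor. The other 14 (34.1%) were rich, against 35.8% of all windows and 47.6% of those of protein-coding genes. Of the poor windows, 18 (66.7%, interval 46.0 to 83.5) overlapped a peak, from 16 of 20 genes. Of all CpG-poor windows, 20.0% did, and of those of protein-coding genes 26.6%. Of the 14 rich windows, 10 overlapped a peak (71.4%), where 80.8% of all rich windows and 83.5% of those of protein-coding genes did. The reference windows were not limited to genes named in the list, whereas all 35 genes are named there. Of the protein-coding genes in RefSeq, 75.2% were named, and the part of this in the differences was not tested.

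Among the CpG-poor windows that overlapped a peak were those of Lck (0.289 and 0.211), Zap70 (0.341), Lat (0.310), Grap2 (0.100), Trat1 (0.108) and Ptprc (0.173 and 0.481). The 10 rich windows that overlapped a peak were those of Cbl (1.05), Dgkz (0.975), Nfatc3 (0.964), Ptprj (0.927), Prkcq (0.926), Fyn (0.891), Csk (0.729), Plcg1 (0.70), Ctla4 (0.609) and Cblb (0.603). Ptprj, Csk, Txk, Zap70, Nfatc2, Nfatc3, Ptpn22 and Dgka each had windows with and without a peak, so that the starts of 1 gene differed.

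**Figure D5:**
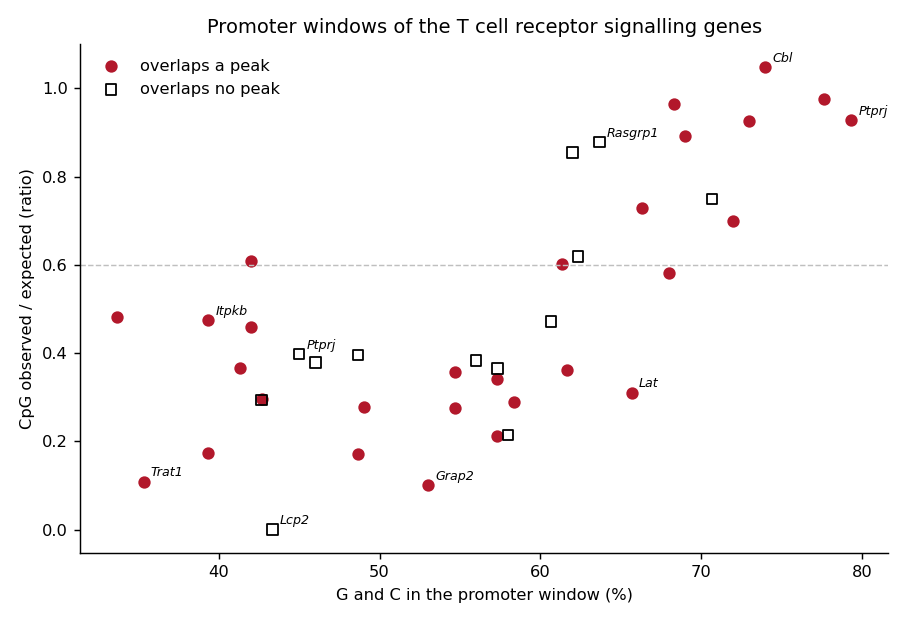
Share of G and C (horizontal axis, percent) and ratio of observed to expected CpG (vertical axis) of the 41 promoter windows of 27 genes, filled where a peak overlaps the window and open where none does. The dashed line marks the ratio of 0.6, and 18 of the 27 windows on or under it are filled.

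Over the same windows the ETS letters GGAAGT were in 36.6% against 23.8% of all windows, the TCF letters TCAAAG in 24.4% against 16.0%, and the RUNX letters TGTGGT in 17.1% against 16.8%. CAGCTG was in 12.2% against 16.3%, AGATAA in 14.6% against 11.2%, GGGCGG in 43.9% against 35.7%, TATAAA in 14.6% against 13.6% and CCAAT in 19.5% against 37.4%. Both strands were searched, and no motif contains another. On the strand of the gene alone the order turned for 3 motifs, with TCF letters in 4.88% against 8.33%, RUNX letters in 4.88% against 8.99% and TATAAA in 7.32% against 8.32%. With 41 windows, several from 1 gene, these shares are a description. Among windows that overlapped a peak, a set chosen after seeing the data, the ETS letters were in 35.7% against 29.2%, the TCF letters in 25.0% against 11.8% and CCAAT in 25.0% against 37.8%. In that set the order turned for GGGCGG, found in 14 of the 28 windows of these genes against 62.8% of all such windows. The other motifs kept their order. Counted by gene, the RUNX letters were found in 7 of the 27 genes and the ETS letters in 10. No share by gene was computed over all genes, so these counts have no reference.

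The other genes of the pathway were taken from lists of 39 genes that are not among the 35. All 39 had a peak, 33 (84.6%) had one within 1 kb of a start, and their median was 10. The 13 genes of the receptor complex, the coreceptors and other surface receptors had a median of 3, as all genes in the list did. The other surface receptors were Cd28, Cd5, Cd6, Cd2, Pdcd1 and Cd226. A peak near the start was found for 9 of the 13 (69.2%), close to the 68.0% of all genes. The 13 were spread widely, as 6 of them had at least 10 peaks, where 12.6% of all genes had as many. These were Cd247 of the receptor complex (14) and the surface receptors Cd2 (22), Cd226 (20), Cd28 (14), Pdcd1 (13) and Cd6 (10). Among the 13, Cd2, an adhesion receptor, had the most peaks, 22, and Cd3d, Cd3g and Cd8a had 1 each. The 4 without a near peak, named after their values were seen, were Cd3d (nearest 4.78 kb), Cd4 (2.81 kb), Cd8a (19.5 kb) and Cd8b1 (6.26 kb). The 26 other signalling genes had a median of 10.5, from 1 for Was, an actin regulator, to 57 for Pik3r1, the regulatory subunit of PI3 kinase. A near peak was missing for 2 of the 26, Ppp3cb and Sla.

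Set beside the B cell receptor pathway, where related proteins do the same work, the genes showed no common direction. The B cell gene had more peaks in 6 of 10 pairs and the T cell gene in 4, and all 10 B cell genes had a peak within 1 kb of a start. Lck had 3 peaks and Blk 10, and Zap70 had 12 and Syk 16. Lat had 1 and Lat2 had 6, Grap2 had 7 and Grap 10, Plcg1 had 13 and Plcg2 17, and Prkcq had 22 and Prkcb 31. The T cell gene was ahead for Fyn, 17 against 4 for Lyn, for Txk, 10 against 3 for Btk, for Lcp2, 16 against 9 for Blnk, and for Rasgrp1, 25 against 16 for Rasgrp3. The pairs were not tested.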

How the data were processed

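Open chromatin was measured by ATAC-seq in 14 libraries of 7 cell types, and the file used was 1 deposited annotated list of 92842 peaks merged by the authors over all cell types. Per the file header, the list was annotated with annotatePeaks against mm10. HOMER 4.10.2 is recorded in the submitters' processing notes. How reads were aligned, peaks called and libraries merged is not given in the sources used here. The deposited list gives positions and signed distances in bp, and its peak score, deposited as 0 in every row, was not used. Depth is therefore unknown, and nothing could be compared between libraries or cell types.

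Peaks were taken by the gene name in the list, and distances are those of the list, from the peak centre to the nearest start. Gene bodies, promoter windows and strand came from RefSeq tables of GRCm38.p6, in which all 35 genes were found. Counts, medians and shares were computed with Python 3.11.15, pandas 2.3.3, numpy 2.4.6 and scipy 1.17.1, and figures were drawn with matplotlib 3.10.9. Shares carry 95% Clopper-Pearson (exact binomial) intervals for counting error alone. The counting was tested on simulated data. No test of a difference was made, since the list holds no replicate.

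The members, the 5 role groups and the lists of other genes were chosen with earlier results of these data known. In each role group the text gives places for the 2 genes with the most peaks, those with the fewest and every gene without a peak within 1 kb, and the other members are given by counts. Sequences are those of Lck, Zap70, Lat and Lcp2 and of genes without a near peak, of which the table held Itpkb. The overlap with promoter windows, the CpG ratio of 0.6, the peaks in other genes and the loci of neighbouring genes were added after the data had been seen. Alternatives were other distances from the start, peaks in repeats left out, Cblb left out, protein-coding genes only, gene bodies in place of nearest starts and 1 strand for motifs.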

Additional observations from a re-analysis of the deposited data

How the results depend on the processing

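Of 28 recomputed values, 21 stayed within 1.5 times the count or within the counting interval. Counting only peaks within 10 kb of a start, the median per gene was 3, against 1 over all genes. Within 50 kb the share of peaks in introns was 55.0%, against 41.8% of all peaks, and counting introns of the gene itself only (chosen after seeing the data) it was 42.9%. On the strand of the gene alone, RUNX letters were in 2 genes in place of 7 and TCF letters in 2 in place of 10. NF-Y letters were in 5 in place of 8 and TATA letters in 3 in place of 6. Counted by window, RUNX letters were then in 4.88% against 8.99% of all windows, and TCF letters in 4.88% against 8.33%. NF-Y letters were in 12.2% against 21.2%, and TATA letters in 7.32% against 8.32%. For RUNX, TCF and TATA this turned the order found on both strands. The number of genes with a near peak was 30 of 35 within 500 bp and 33 within 2 kb, against 63.6% and 72.7% of all genes. Without Cblb the median stayed at 11. With a CpG ratio of at most 0.4 counted as poor (chosen after seeing the data), 63.6% of poor windows overlapped a peak, against 14.0% over all. The latter include windows of genes that the list does not name. The cause of these shifts was not tested.

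No paired analysis was possible because the list is merged over all libraries and holds no value per replicate. The list does not say in which cell type a peak was open, how high it was or how deeply a library was sequenced, and the absence of a near peak is not a measurement of closed chromatin. Peaks go to the nearest start, which moves peaks between neighbours such as Itpkb and Gm5069.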
